A study of Mus musculus with 8 samples.

Results

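The genes described here encode the DNA replication machinery, taken as a list of 50 genes and followed through the steps of replication: licensing of origins, firing, the polymerases with their clamp, nucleotide supply and fork protection. The members are all array probes whose platform gene symbol is on the list. These were 76 of the 25697 probes and stood for 47 genes of 16593 on the array. Gins1, Gins2 and Rfc3 had no probe under their symbol and were not analysed here.

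The cells were granulocyte-macrophage progenitors (GMP), the bone marrow precursors of granulocytes and of monocytes, sorted on c-Kit (present), Sca-1 (absent), CD34 and CD16/32 (both high) from cells low in lineage markers. The DKO group was 4 samples from mice that lacked both SSB1 and SSB2, paralogous proteins that bind single-stranded DNA, whose gene symbols are Nabp2 and Nabp1, and the control group was 4 samples from wild-type (WT) mice. All mice were female and of the strain C57BL/6, and their age, how and in which cells the genes were deleted, and whether cells of several mice were pooled are not stated. Each sample was hybridised in 1 colour to an Illumina MouseRef-8 v2.0 BeadArray. The labels do not tie each sample to a mouse of its own, and the p-values here cover the spread among the arrays alone, which may be technical.

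A cell copies its genome once per cycle. The origin recognition complex (Orc1 to Orc6) marks origins, and Cdc6 and Cdt1 load the Mcm2 to Mcm7 helicase onto them, which is licensing. The kinase Cdc7 with its activator Dbf4 then fires the origin, Cdc45 and the GINS complex join the helicase, and the polymerases follow. Progenitors such as GMP divide often and express these genes strongly, largely under the E2F transcription factors.

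Levels below are normalized log2 intensities after background correction and quantile normalization, and differences are DKO minus control on that scale. A probe was tested when it was detected (detection p under 0.05) on at least 4 of the 8 arrays, and a difference passed the threshold when the limma p-value, adjusted over all 10856 tested probes by Benjamini-Hochberg, was under 0.05. Of the 76 member probes, 58 were tested, and 44 of the 47 genes had a tested probe. The 3 genes that did not pass the filter, the origin subunit gene Orc1, the polymerase alpha catalytic subunit gene Pola1 and the polymerase epsilon subunit gene Pole2, each had a lone probe that was detected on none of the 8 arrays. Each gene is represented by its tested probe with the highest mean. Further tested probes are given beside it for Rrm2, Lig1, Mcm6, Orc4, Prim2, Tipin, Tk1 and Tyms. Those of Mcm10, Rfc4 and Orc5 had the same sign as the brightest and did not pass.

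The arrays detected between 9774 and 11227 probes. The mean raw intensity was 380 on DKO 1 and between 547 and 736 on the others. For 3 array measures (detected probes, mean and median intensity), two-sided exact permutation gave p between 0.114 and 0.257 (adjusted p between 0.171 and 0.257), where 0.0286 is the smallest that 4 against 4 can give. Nabp2 measured 7.27, 7.43, 6.42 and 7.45 on the DKO arrays and 8.96, 9.09, 8.13 and 9.10 on the control arrays by its brighter probe, so it was lower on every DKO array (3.20-fold, limma adjusted p = 0.00198). Its dimmer probe differed by -0.41, with overlapping groups, and did not pass (adjusted p = 0.355). No array detected the probe of Nabp1, so it is no check of the labels. The 10 GMP markers with a probe, among them Mpo and Elane, were detected on all 8 arrays, while the T cell genes Cd3e, Cd3d and Cd3g and the B cell genes Pax5 and Ms4a1 were detected on none. Of the same lists, the cytotoxic granule gene Nkg7 and the B cell receptor gene Cd79b were detected on all 8 arrays. The basophil and mast cell genes Gata2, Cpa3, Mcpt8 and Prss34 and the megakaryocyte genes Itga2b, Pf4 and Gp9 were also detected on all 8 arrays.

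Most of the replication machinery did not pass the threshold between DKO and control GMP. Over the probes, 3 of the 58 tested were higher and 4 lower, where 22.7% of all tested probes were called (10.4% higher and 12.4% lower). Of the 44 tested genes, 2 rose, 4 fell and 38 did not pass, so 13.6% were called, against 24.3% of all 7604 tested genes. Rrm2, a ribonucleotide reductase subunit, and the origin gene Orc2 rose, and the ligase gene Lig1, the polymerase genes Pold1 and Pole and the licensing factor gene Cdt1 fell. The share of members that rose was 4.55% against a background of 10.1%, and the share that fell was 9.09% against 14.3%. Among the members 13 (29.5%) had an unadjusted p under 0.05, against 38.8% of all tested genes. The median difference over the 44 genes was -0.07, beside -0.03 over all tested genes. With arrays aligned by medians (not by quantiles), the median over all tested probes was -0.40, 0 members rose and 8 fell, and the members' median of -0.44 lay 0.04 below that shift. These bulk samples measure neither the share of cells in S phase nor RNA per cell, and the cause of the shift was not tested.

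**Figure D1:**
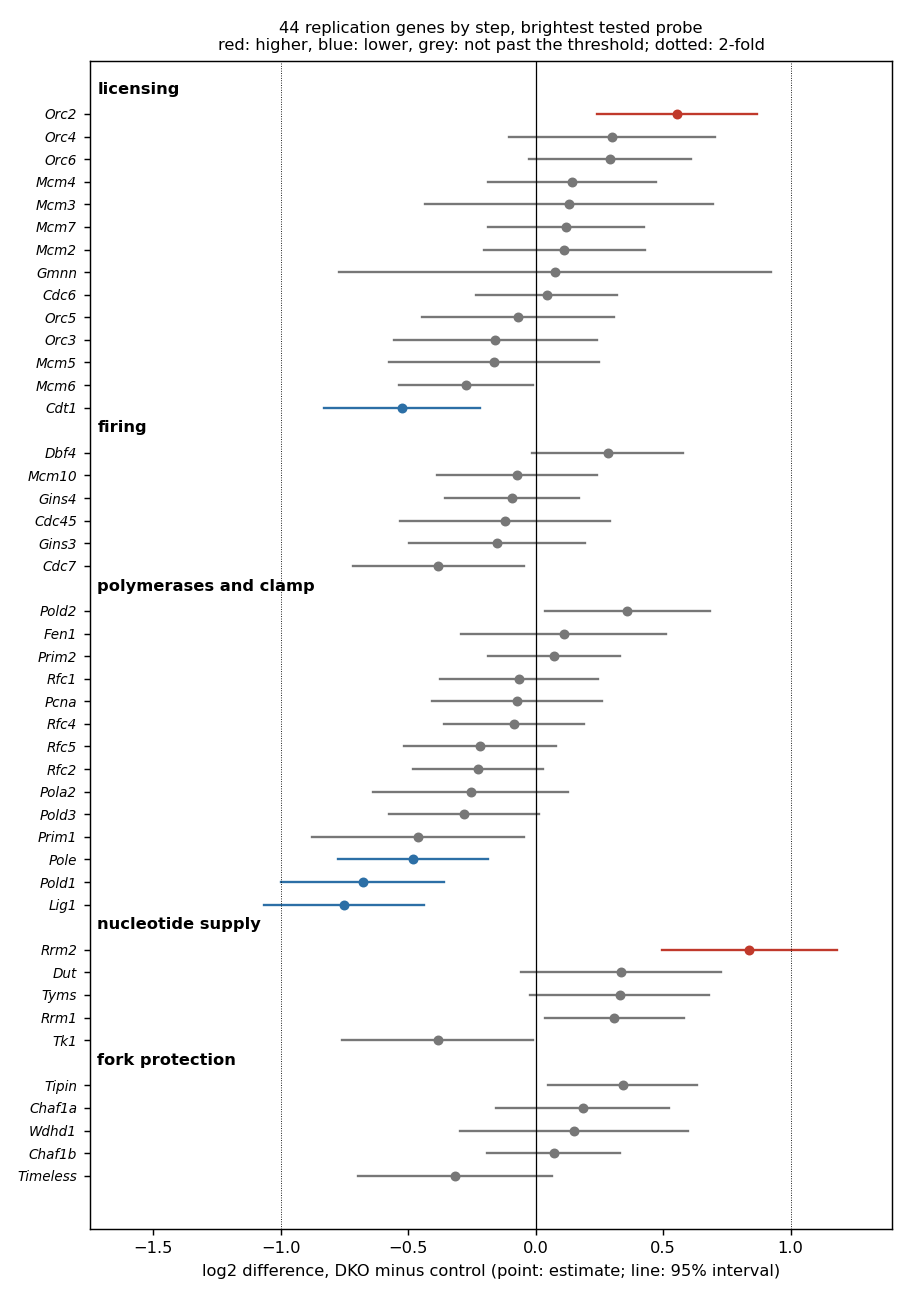
Log2 difference between DKO and control (horizontal axis, DKO minus control) for the 44 tested replication genes, grouped by step, with lines for the 95% interval of limma. Rrm2 and Orc2 lie above 0 in red and Lig1, Pold1, Cdt1 and Pole below 0 in blue, while the 38 grey genes did not pass the threshold; with arrays aligned by medians, the median difference of all tested probes was -0.40 and Orc2 and Rrm2 did not pass.

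The intervals cover the spread among the arrays under the reported normalization only. For all 38 genes that did not pass, the 95% interval of the difference lay within 2-fold in either direction, and for 24 of them within 1.5-fold. With arrays aligned by medians, some of these genes had larger differences, such as Cdc7 (-0.90) and Prim1 (-0.86). Relative to the shift of all probes these were -0.49 and -0.45. DKO and control arrays were fully separate for 10 of the 44 members, against a background of 29.4% of tested genes and 27.6% of tested probes. Arrays of the DKO group were more spread than those of the control group, with a median SD over the members of 0.225 against 0.144, and 37 of the 44 members had the larger SD in DKO. The same held for 73.6% of all tested genes, with median SDs of 0.252 and 0.170.

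Licensing genes had a median difference of 0.09 over 14 tested genes. Of these, 1 rose, 1 fell and 12 did not pass, a share of 14.3% called beside 24.3% of all tested genes. Cdt1, which loads the helicase together with Cdc6, measured 11.14, 11.29, 11.52 and 11.65 on the DKO arrays and 11.96, 11.88, 11.94 and 11.91 on the control arrays. Every DKO array was below every control array, and the control arrays lay close together. Cdt1 was 1.44-fold lower (difference -0.52, SE 0.14, limma adjusted p = 0.0210). The call of Cdt1 was lost without control 1 (adjusted p = 0.0585), without control 2 (0.0553), and without DKO 1 and DKO 2 together (0.102), and it was not called under a 1.5-fold minimum, nor were Orc2 and Pole. The adjusted p ranged from 0.00548 to 0.102 over 18 alternatives.

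The partners of Cdt1 did not pass. Cdc6, the loading ATPase, differed by 0.04 (95% interval -0.23 to 0.32), with DKO arrays at 9.43, 9.51, 9.75 and 9.75 and control arrays at 9.49, 9.55, 9.61 and 9.61, and the groups overlapped. Geminin, the inhibitor that binds Cdt1 after origins have fired, is encoded by Gmnn. It measured 6.73, 4.60, 6.46 and 6.32 in DKO and 6.09, 5.87, 5.74 and 6.12 in control, with DKO 2 below every other array and the other 3 DKO arrays above every control array. Its probe was detected on 3 of the 4 DKO arrays, and its difference was 0.08 (95% interval -0.77 to 0.92, the widest among the 44 members). Without DKO 2, Gmnn passed the threshold and counted among 3 members that rose.

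None of the helicase genes passed. Of Mcm2 to Mcm7, 4 had a positive and 2 a negative difference, from -0.27 to 0.14. An unadjusted p under 0.05 was found for 1 of the 6 (16.7%), against 38.8% of all tested genes. That gene was Mcm6, which measured 11.84, 11.90, 12.06 and 12.01 in DKO and 12.16, 12.35, 12.23 and 12.16 in control. The groups did not overlap, and the difference of -0.27 did not pass (SE 0.12, limma adjusted p = 0.120). It passed on the authors' processed values (adjusted p = 0.0279) and without background correction (0.0323), within a range of 0.0279 to 0.348 over 18 alternatives. The other tested Mcm6 probes differed by -0.09 and -0.38 and did not pass. Mcm4 differed by 0.14 and Mcm5 by -0.16, and in Mcm5 DKO 1 read 12.24, below the other 7 arrays at 12.77 to 13.15.

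Among the 5 tested origin recognition genes, Orc2 alone passed, a share of 20% called beside 24.3% of all tested genes. Orc2 measured 5.68, 5.35, 5.30 and 5.70 in DKO and 4.92, 4.88, 5.15 and 4.86 in control, so the groups did not overlap. These levels are close to background, since the probe was detected on 3 DKO arrays and 1 control array, and the other Orc2 probe was detected on 0 of the 8 arrays. The 1.47-fold rise (difference 0.55, SE 0.14, limma adjusted p = 0.0187) fell to a difference of 0.15 with no background correction (adjusted p = 0.141), 0.25 with normexp fitted on all probes (0.0813) and 0.13 on the authors' processed values (0.154). The call was also lost with arrays aligned by medians (0.287), without control 1 (0.0529), without control 2 (0.062) and without control 4 (0.0525), within a range of 0.00986 to 0.287. Orc6 differed by 0.29 and Orc4 by 0.30 and did not pass, and the second tested Orc4 probe differed by less than 0.01 in size. Both differences turned slightly negative with arrays aligned by medians, and were 0.38 (Orc6) and 0.35 (Orc4) relative to the shift of all probes.

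Of the 6 tested firing genes, 0 passed in the limma fit, where 24.3% of all tested genes were called. An unadjusted p under 0.05 was found for 1 of the 6 (16.7%), against 38.8% of all tested genes. The kinase gene Cdc7 had the smallest p, at a difference of -0.38 (SE 0.15, adjusted p = 0.0924), with DKO arrays at 9.21, 9.27, 9.40 and 9.58 and control arrays at 9.78, 9.70, 9.48 and 10.04. DKO 4 overlapped with control 3. It passed with arrays aligned by medians (adjusted p = 0.0255), within a range of 0.0255 to 0.329, and there differed by -0.49 relative to the shift of all probes. Its activator gene Dbf4 pointed the other way, at 10.04, 10.17, 10.04 and 10.26 in DKO and 9.82, 9.85, 9.63 and 10.08 in control, where control 4 overlapped with DKO. The difference of 0.28 did not pass (SE 0.13, adjusted p = 0.152). It was -0.18 with arrays aligned by medians, or 0.22 relative to the shift of all probes. Gins3, a GINS subunit gene, differed by -0.15 (adjusted p = 0.516). Cdc45, Mcm10 and Gins4, whose products join or act with the helicase at firing, differed by -0.12, -0.07 and -0.09. The firing genes had a median difference of -0.11, or -0.14 relative to the shift of all probes with arrays aligned by medians.

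The polymerases, the clamp and the joining enzymes held 3 of the 4 falls. Of 14 tested genes, 3 fell, 0 rose and 11 did not pass, and 11 of the 14 differences were negative, with a median of -0.22, or -0.20 relative to the shift with arrays aligned by medians. The share that fell was 21.4%, against a background of 14.3% of tested genes. The median deviation of this step from the control mean was negative on all 4 DKO arrays, from -0.24 to -0.13, as the plot of step medians by array shows.

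Lig1, the ligase that joins Okazaki fragments, measured 10.20, 10.41, 10.30 and 10.59 in DKO and 11.10, 11.18, 11.34 and 10.89 in control. All DKO arrays lay below all control arrays, a fall of 1.68-fold (difference -0.75, SE 0.14, limma adjusted p = 0.00423). It passed in all 18 alternatives run, with adjusted p from 0.000811 to 0.0208. Its 3 dimmer probes differed by -0.44, -0.10 and -0.24, in the same direction, and did not pass.

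Pold1 encodes the catalytic subunit of polymerase delta, which copies the lagging strand. It measured 11.36, 11.17, 11.37 and 11.77 in DKO and 12.11, 12.07, 12.07 and 12.15 in control, without overlap and with control arrays that lay close together. Pold1 was 1.6-fold lower (difference -0.68, SE 0.14, limma adjusted p = 0.00757) and passed in all 18 alternatives, with adjusted p from 0.00143 to 0.0380. The other delta subunits did not follow it past the threshold. Pold2 measured 11.39, 11.38, 10.90 and 11.02 in DKO and 10.82, 10.82, 10.92 and 10.70 in control. DKO 3 lay just below control 3, and the other DKO arrays lay above all controls. Pold2 differed by 0.36, which did not pass (SE 0.15, adjusted p = 0.10). With arrays aligned by medians it differed by 0.01, or 0.41 relative to the shift of all probes. It passed without background correction (adjusted p = 0.0488) and on the authors' processed values (0.0498). Pold3 differed by -0.28 (SE 0.13, adjusted p = 0.153) and passed with arrays aligned by medians (adjusted p = 0.0470, range 0.0470 to 0.330). Its difference there was -0.38 relative to the shift of all probes. Whether Pold1 and Pold2 differed from each other in response was not tested.

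Pole, the catalytic subunit gene of the leading strand polymerase epsilon, measured 7.88, 8.10, 8.18 and 8.25 in DKO and 8.56, 8.70, 8.67 and 8.40 in control. The groups did not overlap, and the fall was 1.4-fold (difference -0.48, SE 0.13, limma adjusted p = 0.0254). The call was lost without control 1 (adjusted p = 0.0601), without control 2 (0.0841), without control 3 (0.0639) and without DKO 1 and DKO 2 together (0.102), within a range of 0.0123 to 0.102.

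The primase and clamp genes did not pass. Prim1, the catalytic primase gene, had a difference of -0.46 (SE 0.19, adjusted p = 0.10), at 6.13, 5.58, 6.23 and 6.28 in DKO and 6.80, 6.52, 6.55 and 6.19 in control, where control 4 overlapped with DKO. It passed with arrays aligned by medians (adjusted p = 0.0257, range 0.0257 to 0.330), and there differed by -0.45 relative to the shift of all probes. The 2 probes of the primase subunit gene Prim2 pointed opposite ways, at 0.07 and -0.26, and did not pass. Pcna, the sliding clamp, differed by -0.07 (95% interval -0.41 to 0.26). All 4 tested clamp loader genes, Rfc1, Rfc2, Rfc4 and Rfc5, had small negative differences from -0.23 to -0.07. Of these, 0 had an unadjusted p under 0.05, against 38.8% of all tested genes. Fen1, the flap nuclease that trims Okazaki fragments before Lig1 joins them, differed by 0.11 (95% interval -0.29 to 0.51), and Pola2, a polymerase alpha subunit gene, by -0.26.

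**Figure D2:**
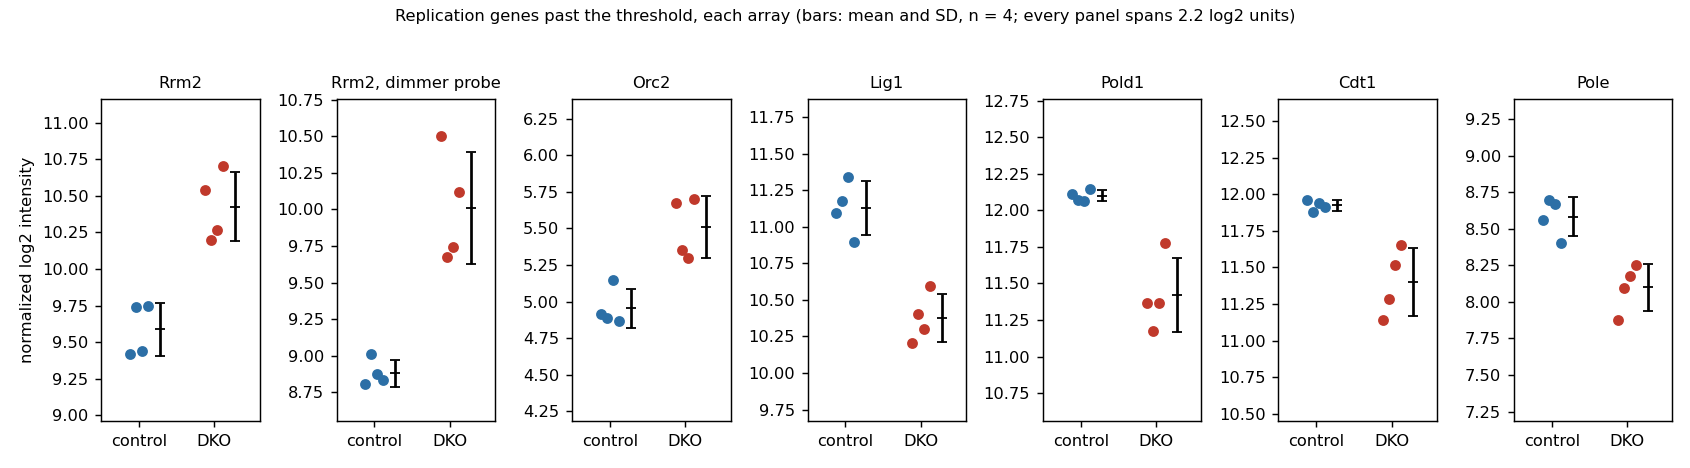
Normalized log2 intensity (vertical axis) on each control and DKO array for the 6 replication genes past the threshold, with the dimmer Rrm2 probe beside the brighter probe; bars give the mean and SD of 4 arrays, and every panel spans the same range. In each panel the DKO and control arrays do not overlap.

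Nucleotide supply held the largest rise among the members. Of its 5 tested genes, 1 rose and 0 fell, a share of 20% called beside 24.3% of all tested genes. Rrm2 encodes the small subunit of ribonucleotide reductase, which makes deoxyribonucleotides and is limiting in S phase. Its brighter probe measured 10.54, 10.20, 10.27 and 10.70 in DKO and 9.42, 9.74, 9.44 and 9.75 in control, 1.79-fold higher (difference 0.84, SE 0.16, limma adjusted p = 0.00376). Its dimmer probe measured 10.50, 9.67, 9.75 and 10.12 in DKO and 8.80, 9.01, 8.87 and 8.83 in control, 2.19-fold higher (difference 1.13, SE 0.18, adjusted p = 0.00187). On both probes every DKO array was above every control array. Both calls held in 17 of 18 alternatives and were lost with arrays aligned by medians, where the differences were 0.40 (adjusted p = 0.302) and 0.66 (0.0731), or 0.80 relative to the shift of all probes for the brighter probe.

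The other 4 nucleotide genes did not pass. Rrm1, the large reductase subunit gene, measured 11.44, 11.64, 11.57 and 11.37 in DKO and 11.15, 11.30, 11.27 and 11.06 in control, without overlap, a difference of 0.31 (SE 0.12, adjusted p = 0.0960). It passed on the authors' processed values (0.0269) and without background correction (0.0292). With arrays aligned by medians it was -0.02 (0.970), or 0.39 relative to the shift of all probes, the ends of its range of adjusted p being 0.0269 and 0.970. Tyms, the thymidylate synthase gene, differed by 0.33 and Dut, the dUTPase gene, by 0.33, with adjusted p of 0.157 and 0.198. The dimmer tested probe of Tyms differed by 0.23 and did not pass (limma adjusted p = 0.282). Tk1, the cytosolic thymidine kinase gene of the salvage route, pointed down at -0.38 (SE 0.17, adjusted p = 0.125). It measured 11.09, 10.74, 10.37 and 10.77 in DKO and 11.11, 11.16, 11.35 and 10.89 in control, with DKO 1 among the control values. Without DKO 1 it passed (difference -0.50, adjusted p = 0.0437), and it also passed with array weights (0.0339) and with arrays aligned by medians (0.0411), within a range of 0.0339 to 0.278. Under alignment by medians it differed by -0.34 relative to the shift of all probes. The dimmer tested probe of Tk1 differed by -0.17 and did not pass (limma adjusted p = 0.545). The median of the 5 genes was 0.33, or also 0.33 relative to the shift with arrays aligned by medians, and their median deviation from the control mean was positive on all 4 DKO arrays, from 0.17 to 0.45.

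**Figure D3:**
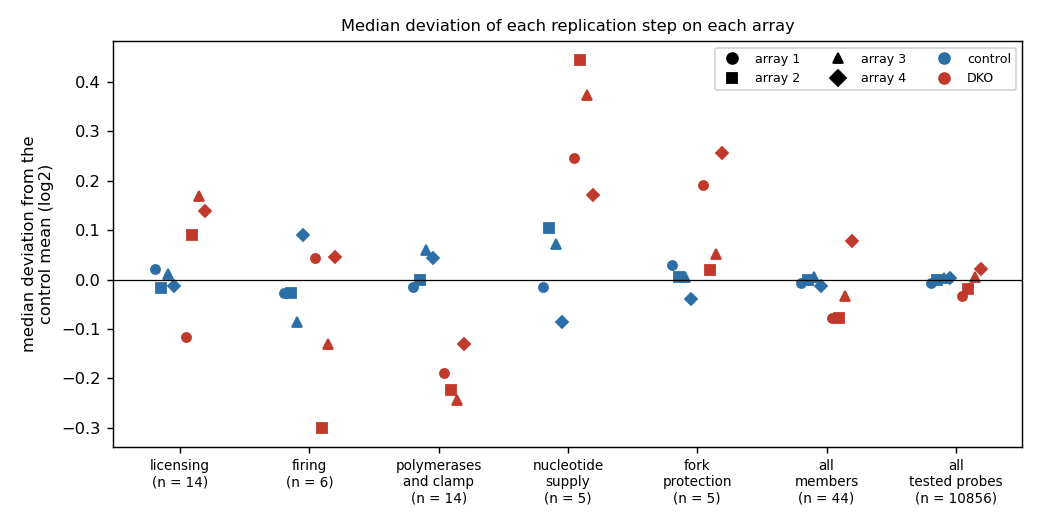
Median deviation from the control mean (vertical axis, log2) of the genes of each step on each array, with control arrays in blue, DKO arrays in red and the replicate number by marker shape. On the DKO arrays the polymerase step lies between -0.24 and -0.13, nucleotide supply between 0.17 and 0.45 and fork protection between 0.02 and 0.26. Licensing and firing lie on both sides of 0. Each median describes the listed genes only and carries no test.

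Fork protection genes did not pass. In the limma fit 0 of the 5 tested genes were past the threshold, where 24.3% of all tested genes were called. An unadjusted p under 0.05 was found for 1 of the 5 (20%), against 38.8% of all tested genes. Tipin and Timeless encode partners in a complex that steadies the stalled fork. Tipin measured 12.02, 11.87, 11.66 and 12.11 in DKO and 11.61, 11.63, 11.56 and 11.50 in control, without overlap, a difference of 0.34 (SE 0.13, adjusted p = 0.0863). It passed in 5 of 18 alternatives, among them the authors' processed values (adjusted p = 0.0291) and leaving out DKO 3 (0.0455). With arrays aligned by medians it was 0.04 (0.936), or 0.44 relative to the shift of all probes, and the adjusted p ranged from 0.0291 to 0.936. The dimmer tested probe of Tipin differed by 0.42, with overlapping groups, and did not pass (limma adjusted p = 0.217). Timeless pointed the other way, at 9.69, 9.61, 10.13 and 10.17 in DKO and 10.28, 10.32, 9.91 and 10.36 in control, a difference of -0.32 (SE 0.17, adjusted p = 0.208). Here control 3 lay among the DKO values. Chaf1a and Chaf1b, subunits of the assembly factor that deposits histones behind the fork, differed by 0.19 and 0.07, and Wdhd1, which links the helicase to polymerase alpha, by 0.15.

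Probes of the same gene mostly pointed the same way. Of the 11 members with several tested probes, 9 had all their probes on the same side of 0, and the other two were Orc4 and Prim2. Rrm2 was the only member with more than 1 probe past the threshold.

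**Figure D4:**
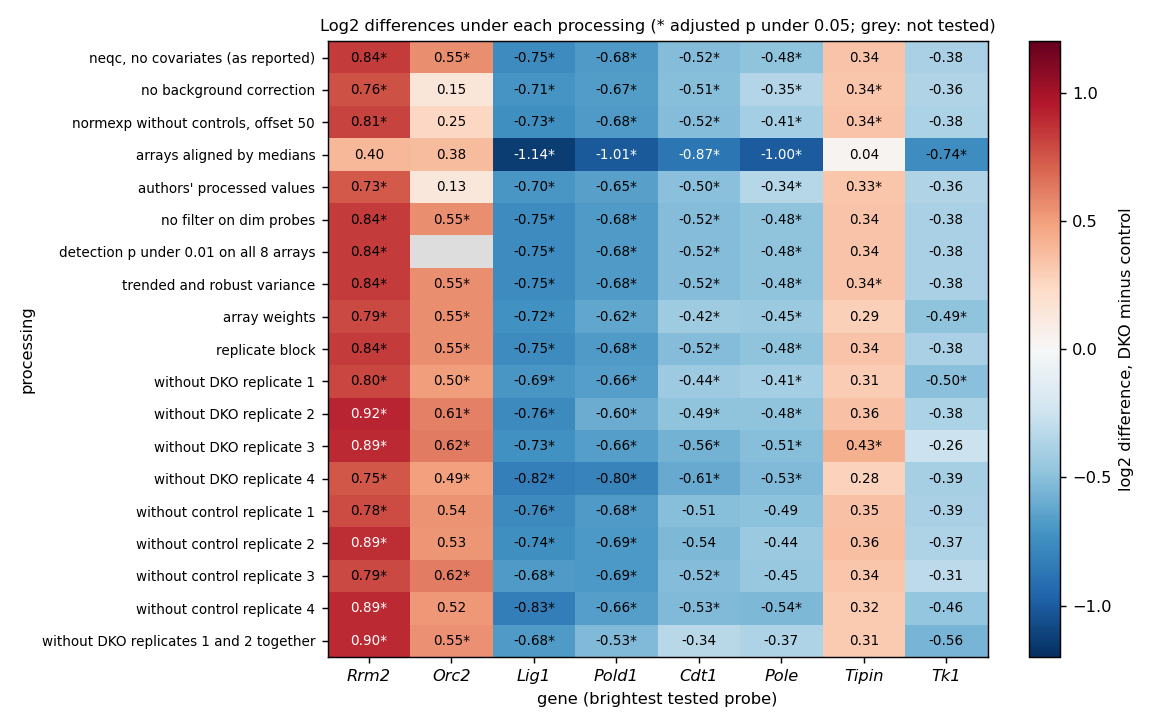
Log2 difference, DKO minus control (colour and printed value), of the 6 called genes and of Tipin and Tk1 (columns) under the reported processing and each alternative (rows); a star marks an adjusted p under 0.05 and grey a probe left out by the filter. Lig1 and Pold1 pass in every row, Rrm2 in every row but arrays aligned by medians, and Orc2, Cdt1 and Pole lose the star in several.

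The promoters were read for the letters of E2F sites, since most members are textbook E2F targets. Windows from RefSeq (build GRCm38.p6) covering 250 bases before to 50 after each start were given for 41 of the 50 genes. They were searched on both strands for TTTCCCGC, TTTCGCGC, TTTGCCGC and TTTGGCGC, which overlap where a site reads through both strands. Any of these was present for 15 of the 41 genes, 36.6%, against 2.60% of the 27025 genes in the table. Among tested genes it was present for 7 of 12 licensing genes, 1 of 5 firing genes, 3 of 11 polymerase and clamp genes, 0 of 5 nucleotide genes and 0 of 4 fork protection genes. It was present for Cdt1, Pold1 and Lig1, all 3 of the genes that fell and had a window, for 8 of 32 that did not pass and for 0 of 2 that rose, with 3 start sites read for Lig1 and 2 for Orc2. Pole had no window in the table. A match is a description of the letters and not a bound site, and no match says only that these letters are not in the window.

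The stretches of 30 bases around a match are shown for the genes that fell and for 4 licensing genes that did not pass, so that the letters can be compared, with the match in capitals, 5′ to 3′ on the strand of the gene.
Cdt1 (fell), chr8:122568035-122568064, plus strand: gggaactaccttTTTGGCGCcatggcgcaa
Pold1 (fell), chr7:44548766-44548795, minus strand: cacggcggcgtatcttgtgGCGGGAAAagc
Lig1 (fell), chr7:13278841-13278870, plus strand: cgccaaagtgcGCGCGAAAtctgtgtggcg
Cdc6 (not past), chr11:98908002-98908031, plus strand: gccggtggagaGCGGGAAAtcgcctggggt
Mcm5 (not past), chr8:75109345-75109374, plus strand: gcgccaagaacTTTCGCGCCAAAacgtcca
Mcm6 (not past), chr1:128359797-128359826, minus strand: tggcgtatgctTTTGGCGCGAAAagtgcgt
Mcm7 (not past), chr5:138172030-138172059, minus strand: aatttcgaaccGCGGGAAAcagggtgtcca
The longer runs of capitals in Mcm5 and Mcm6 are overlapping matches on opposite strands. The same letters, GCGGGAAA, stand in the windows of Pold1, which fell, and of Cdc6 and Mcm7, which did not pass.

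For Rrm2, the gene with the largest rise, the 250 bases before the start held none of the E2F letters. They are shown with a CCAAT box, the sequence bound by the factor NF-Y, in capitals.
Rrm2 (rose), chr12:24708004-24708253, plus strand: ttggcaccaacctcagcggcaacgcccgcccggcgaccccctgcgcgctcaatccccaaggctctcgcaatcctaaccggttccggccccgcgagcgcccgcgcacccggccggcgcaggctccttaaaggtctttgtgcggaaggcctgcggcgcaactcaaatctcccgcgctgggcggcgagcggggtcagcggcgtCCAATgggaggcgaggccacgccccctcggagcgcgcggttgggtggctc
CCAAT, read on both strands, was present in the windows of 21 of the 41 members, 51.2%, and of 41.1% of all genes in the table.

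Other genes of the pathway were counted from lists that do not overlap with the members. Of 20 tested further replication genes, 1 rose, 0 fell and 19 did not pass, a share of 5% called beside 24.3% of all tested genes. An unadjusted p under 0.05 was found for 8 of them (40%), against 38.8% of all tested genes. The gene that rose was the helicase gene Recql4, which acts in origin firing, at 1.41-fold (difference 0.50, adjusted p = 0.0356). The call of Recql4 was lost in 9 of 18 alternatives, among them leaving out DKO 1, 2 or 3 or control 2, 3 or 4, with adjusted p from 0.0224 to 0.927. Nasp, a histone chaperone gene, differed by 0.40 (adjusted p = 0.0581), the polymerase delta subunit gene Pold4 by -0.53 (0.0612) and the origin timing gene Rif1 by 0.53 (0.0551), and none of them passed. Pold4 passed in 10 of 18 alternatives, with adjusted p from 0.00425 to 0.148.

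Of 18 tested further genes of nucleotide supply, 3 rose, 2 fell and 13 did not pass, a share of 27.8% called beside 24.3% of all tested genes. Dtymk, the thymidylate kinase gene of the cytosolic dTTP route, measured 12.29, 11.46, 11.70 and 11.63 in DKO and 11.04, 10.75, 10.64 and 10.74 in control and was 1.97-fold higher (adjusted p = 0.00421). Ppat, which catalyses the committed step of purine synthesis, was 1.67-fold higher (adjusted p = 0.00140). Cad, which starts pyrimidine synthesis, was 1.51-fold higher (adjusted p = 0.0114) and was named after its values were seen. By any tested probe 5 genes rose, since a dimmer probe of Ctps (1.86-fold, adjusted p = 0.0122) and of Gart (1.34-fold, 0.0451) was higher while the brightest was not past. The genes that fell encode the mitochondrial salvage kinases. Tk2, the mitochondrial thymidine kinase gene, was 1.65-fold lower (adjusted p = 0.00540), and Dguok, the mitochondrial deoxyguanosine kinase gene, was 1.94-fold lower (adjusted p = 0.00690). Tk2 and Dguok passed in all 18 alternatives, while Dtymk and Ppat passed in 17 and were lost with arrays aligned by medians (adjusted p = 0.0640 and 0.571).

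Of 15 tested genes of the E2F family, the pocket proteins and the DREAM complex, which control replication genes, 3 rose, 4 fell and 8 did not pass, a share of 46.7% beside 24.3% of all tested genes. These counts depended on the setting, with 0 higher and 6 lower with arrays aligned by medians and 1 higher and 2 lower of 17 with no filter on dim probes. Without DKO 4 there were 0 higher and 3 lower, without control 2 there were 0 and 1, and without control 1 or control 3 there were 1 and 1. Only 1 was lower without DKO 1, DKO 2 or control 4. E2f3, an activator, was 1.56-fold higher (adjusted p = 0.0309) and Mybl2, which acts in late S phase, 1.47-fold higher (0.0246), while E2f5 was 1.66-fold lower (0.0158) and E2f6, a repressor, 1.38-fold lower (0.0370). E2f4, Rbl1 and Tfdp2, named after their values were seen, were 1.46-fold higher and 1.41-fold and 1.43-fold lower, with adjusted p of 0.0435, 0.0422 and 0.0423. On leaving out several single arrays, E2f3 lost its call with adjusted p of 0.0602 to 0.0867, and E2f6 with 0.0615 to 0.102. The call of E2f3 was also lost when dim probes were kept (0.0631) and under median alignment (0.845, its largest over 18 alternatives). That of E2f6 was also lost without DKO 1 and DKO 2 together (0.155, its largest). Mybl2 lost its call without DKO 4 (0.0585), control 2 (0.0635) or control 3 (0.0668) and with arrays aligned by medians (0.875). Of 13 tested markers of the late cell cycle, 2 rose, 1 fell and 10 did not pass, with a median difference of 0.05. This is a share of 23.1% called beside 24.3% of all tested genes. By any tested probe 3 rose, since 2 dimmer probes of Cdc20 were higher (1.89-fold, adjusted p = 0.00288, and 1.46-fold, 0.0186) while its brightest was not past (0.302). The mitotic kinase genes Aurka and Plk1 were each 1.5-fold higher (adjusted p = 0.0130 and 0.0153), the spindle gene Nusap1 was 1.44-fold lower (0.0115), and Ccna2, the S and G2 phase cyclin gene, differed by 0.37 and did not pass (0.0900). Aurka and Plk1 were not called with arrays aligned by medians (0.673 and 0.571), and Plk1 not without control 1 (0.0508) or control 2 (0.0562).

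Markers of some other cell types moved between the groups beside these values. All 7 tested monocyte and dendritic cell markers fell, where 14.3% of all tested genes fell. Of these markers, Cd74 was detected on 0 DKO and 4 control arrays, so it entered the test through the control arrays alone. Ctss and Klf4 were each detected on 1 DKO and 4 control arrays. The summed normalized linear intensity of the 7 markers lay between 945 and 1460 in DKO and between 4520 and 6260 in control. The sum of the 9 late neutrophil markers lay between 41600 and 54900 in DKO and between 35700 and 38800 in control, and Mmp8 of that list was detected on none of the arrays. Of the 6 tested, 2 rose, Lcn2 by 3.15 and S100a9 by 0.66 on the log2 scale, while Camp (-0.40), Ltf (-0.38), S100a8 (-0.04) and Ngp (0.98) did not pass. The 6 erythroid markers summed to 166 to 483 in DKO and 503 to 962 in control, with Gata1 and Alas2 detected on none. The sum of the 10 GMP markers, 118000 to 126000 in DKO and 106000 to 120000 in control, overlapped. In that list Cd34, a marker of the sort, was 2.68-fold lower (adjusted p = 0.000858) and the receptor gene Csf2ra 1.6-fold lower (0.00814), and 2 dimmer probes of Mpo were 1.54-fold and 2.05-fold lower while its brightest was not past. The 5 basophil and mast cell markers summed to 1300 to 5110 in DKO and 3630 to 5430 in control. In the same order, sums were 633 to 1670 and 733 to 1210 for the 5 megakaryocyte markers. For the 5 stem and multipotent progenitor markers they were 255 to 489 and 359 to 558. These sums overlapped, and 0 genes of these lists were called, beside 24.3% of all tested genes. All 5 basophil and mast cell differences were negative, and a dimmer Cpa3 probe was lower (adjusted p = 0.0406). The 5 B cell markers summed to 834 to 1060 in DKO and 1370 to 1840 in control. Most of this sum was Cd79b, with log2 means of 9.75 in DKO and 10.51 in control. Cd79b was 1.7-fold lower (adjusted p = 0.00412), and Cd79a was detected on 0 DKO and 3 control arrays. The 5 T and NK cell markers summed to 8340 to 11600 in DKO and 14500 to 16600 in control. Nearly all of this sum was Nkg7, with log2 means of 13.23 in DKO and 13.88 in control. Klrb1c had means of 4.83 and 4.98, and Cd3e, Cd3d and Cd3g were detected on none of the arrays. Nkg7 was 1.56-fold lower (adjusted p = 0.0116), which is a difference of 1 gene and not of the list. The part of these shifts in the differences of the replication genes was not tested.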

How the data were processed

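RNA of sorted GMP was extracted on RNeasy columns, treated with DNase and labelled with the TotalPrep kit, per the labels' protocols. The scanner output went through GenomeStudio, per the submitters' processing notes; no further upstream step is recorded in them. Per the file headers, the deposited raw table gives each probe an intensity (linear, not normalized) and a detection p-value on every array. The authors' processed table holds log2 values. Its scale was found by comparison with quantile-normalized log2 intensities (r between 0.9991 and 0.9995 for differences between arrays), and its centre stays unknown. Its column medians lay between -0.00442 and -0.000503.

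Background correction and quantile normalization used neqc (limma 3.58.1, R 4.3.3, offset 16), and log2 values were fitted with lmFit and eBayes without covariates. The platform annotation gave 1 symbol for 23978 probes, and all 76 member probes matched RefSeq genes by identifier. Correlations of arrays were 0.966 to 0.992 within groups. The fit was tested on simulated data. The number of arrays limits the precision.

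Members, gene lists, settings and naming rule were all chosen with earlier results of these data known. Named are members past the threshold, the 3 others with the smallest p in each step and up to 4 genes of each further list. Other members are named after their values were seen. Chaf1a and Chaf1b were placed with fork protection. Alternatives were 3 other background or scaling settings, the authors' values, 2 filters, array weights, a robust trended variance, the replicate block, a 1.5-fold minimum, other probe rules and leaving out each array, without renewed normalization. The planned BeadChip block could not be fitted without slide labels. Whether replicate numbers pair the samples was not settled. Deviations of same-numbered arrays correlated at 0.192, 0.026, -0.111 and 0.195 for numbers 1 to 4. The values for numbers 1 and 4 were the highest of all pairs of a DKO and a control array.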

Additional observations from a re-analysis of the deposited data

Results flagged for a closer look

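In 5 of the 78 groups of 4 arrays behind the named genes, the highest or lowest array stood far from the others relative to the range of its group, where chance flags about 5% of groups. Timeless read 9.909 on control 3, below the other control arrays at 10.28 to 10.36. Nabp2 also read low on control 3, at 8.133 against 8.963 to 9.096, which is above every DKO array. Mybl2 on DKO 4 read 10.45 against 9.992 to 10.05, E2f6 on DKO 4 read 10.04 against 9.65 to 9.706, and Aurka on control 4 read 10.49 against 10.07 to 10.10.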

How the results depend on the processing

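The counts of all tested probes, 1125 higher and 1344 lower, became 148 and 2335 with arrays aligned by medians, and leaving out 1 array gave 665 to 1161 higher and 864 to 1354 lower. The members went from 2 higher and 4 lower to 0 and 8 with arrays aligned by medians, to 4 higher on the authors' processed values and without background correction, to 1 higher with detection on all 8 arrays, to 1 and 2 with a 1.5-fold minimum, and to 2 lower without DKO 1 and DKO 2 together, an alternative chosen after seeing the data. Leaving out 1 array gave 1 to 3 members higher and 2 to 5 lower. The 1 higher and 2 lower without control 1 or without control 2 were Rrm2, Pold1 and Lig1. The members' median of -0.07 was -0.44 with arrays aligned by medians, and -0.066 to 0.019 on leaving out 1 array, positive without either of control 3 and control 4. Under alignment by medians, among the genes named by the rule, Orc6 (-0.023), Orc4 (-0.050), Dbf4 (-0.18), Rrm1 (-0.017), Tyms (-0.077), Chaf1a (-0.27), Recql4 (-0.042), Nasp (-0.051) and Ccna2 (-0.00048) turned negative. Further members did so too, among them Dut (-0.20) and Mcm4 (-0.14). Of the members with a positive difference, only Orc2, Pold2, Rrm2 and Tipin stayed positive. These values include the shift of all tested probes, whose median was -0.40. Relative to that shift, Rrm1 (0.39), Orc6 (0.38), Orc4 (0.35), Tyms (0.33) and Mcm4 (0.27) were positive. So were Dbf4 (0.22), Dut (0.21) and Chaf1a (0.14), while Cdc6 (-0.06) and Prim2 (-0.04) were negative. The cause of the shift was not tested. With the replicate number as a block, 2 members rose and 4 fell and 1102 probes were higher and 1318 lower. Among the genes named by the rule, the block changed the call of 1, Pold4 (adjusted p = 0.0431). The list of E2F, pocket protein and DREAM genes went from 3 higher and 4 lower to 4 higher and 3 lower with the block. Not every array correlated best with its own number. Background limits what dim probes such as those of Orc2 and Gmnn can show.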
